A study of Mus musculus with 2 samples.

Results

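The genes described here are 33 mouse genes of the endoplasmic reticulum (ER), the compartment in which secreted and membrane proteins are folded. They comprise 12 chaperones and folding factors, 5 disulfide isomerases, 9 genes of ER-associated degradation, 5 stress sensors and signalling genes and 2 subunits of the translocon, out of 18193 genes named on the array. Members were chosen by gene symbol, with ratios between these arrays already known, so their direction is given as a description. RNA came from primary cultures of keratinocytes, the main cells of the epidermis, taken from the skin of newborn C57BL/6 mice. The array labelled MED1-null came from a culture of K5Cre+;MED1flox/flox mice (MED1epi-/-), in which Cre recombinase under the keratin 5 promoter is meant to delete Med1, a subunit of the Mediator complex of transcription, in keratinocytes. The control array came from a culture titled MED1flox/flox, whose source is given as wild-type. Strain and age are the same for both arrays, and no treatment is named in the labels used here. Sex-linked transcripts differ between the arrays, as given below. Each group has 1 array, the number of animals behind a culture is not given in the labels used here, and no p-value or SD between cultures can be had.

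Proteins enter the ER through the Sec61 translocon and are folded by chaperones of the Hsp70, Hsp90 and lectin families, while disulfide isomerases join and rearrange their cysteine bonds. Proteins that stay unfolded are recognised, passed back to the cytosol and degraded. When unfolded protein builds up, the membrane sensors IRE1 (gene Ern1), PERK (gene Eif2ak3) and ATF6 start the unfolded protein response, which raises transcription of chaperone and degradation genes through XBP1, ATF6 and ATF4. In epidermis this response is known to accompany keratinocyte differentiation.

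Sites at which ATF6 and XBP1 act are known as ER stress response elements. The ERSE reads CCAAT, then 9 bases of any kind, then CCACG; the factor NF-Y binds its CCAAT end and ATF6 or XBP1 its CCACG end. In the shorter ERSE-II, ATTGG and CCACG stand 1 base apart. RefSeq promoter sequences of build GRCm38.p6, from 250 bases before to 50 bases after each annotated start, were at hand for 27 of the 33 genes and were searched on both strands. An exact ERSE was present in 9 of the 27 (33.3%), against 0.137% of all 27025 genes in the promoter table, and an exact ERSE-II in 2 (7.41%), against 0.0444%. The ERSE was itself first described in promoters of ER chaperone genes, so its share among these genes is no independent finding. The following sequences are shown because they are the elements that these genes share. Each is written 5′ to 3′ on the strand of its gene, with the fixed letters of the element in capitals. A site that opens with CGTGG holds the element on the opposite strand.
Hspa5, chr2:34772025-34772043, + strand: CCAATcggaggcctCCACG
Hsp90b1, chr10:86705638-86705656, - strand: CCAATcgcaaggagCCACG
Hsp90b1, chr10:86705533-86705551, - strand: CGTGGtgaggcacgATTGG
Calr, chr8:84847075-84847093, - strand: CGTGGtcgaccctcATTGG
Canx, chr11:50325800-50325818, - strand: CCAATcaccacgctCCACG
Creld2, chr15:88819520-88819538, + strand: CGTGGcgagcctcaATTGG
Dnajc3, chr14:118937827-118937845, + strand: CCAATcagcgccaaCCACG
Pdia6, chr12:17266491-17266509, + strand: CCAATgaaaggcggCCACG
Derl3, chr10:75893242-75893260, + strand: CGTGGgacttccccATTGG
Syvn1, chr19:6046532-6046550, + strand: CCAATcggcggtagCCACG
Herpud1 (ERSE-II), chr8:94386377-94386387, + strand: ATTGGgCCACG
Dnajb11 (ERSE-II), chr16:22857852-22857862, + strand: ATTGGcCCACG
The 9 bases between the fixed ends differ from gene to gene, and the element lies in either direction. Hsp90b1 holds 2 elements, in opposite directions.

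Whole upstream windows of 250 bases are shown for 4 genes: Herpud1, which had the lowest ratio of all members, Derl3, the lowest among those with an ERSE, and Hspa5 and Hsp90b1, the Hsp70 and Hsp90 chaperones of the ER. Capitals again mark the fixed letters of ERSE or ERSE-II.
Herpud1, chr8:94386179-94386428, + strand: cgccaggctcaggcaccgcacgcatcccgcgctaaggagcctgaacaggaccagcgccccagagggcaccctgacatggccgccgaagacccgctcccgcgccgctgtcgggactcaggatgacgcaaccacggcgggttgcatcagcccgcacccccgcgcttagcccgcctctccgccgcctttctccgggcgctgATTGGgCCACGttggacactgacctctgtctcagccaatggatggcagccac
Derl3, chr10:75893148-75893397, + strand: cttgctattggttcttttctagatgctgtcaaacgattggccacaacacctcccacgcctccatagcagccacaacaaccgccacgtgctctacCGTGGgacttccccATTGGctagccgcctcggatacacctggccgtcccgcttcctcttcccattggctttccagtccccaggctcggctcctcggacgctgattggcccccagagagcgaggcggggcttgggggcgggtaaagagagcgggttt
Hspa5, chr2:34771840-34772089, + strand: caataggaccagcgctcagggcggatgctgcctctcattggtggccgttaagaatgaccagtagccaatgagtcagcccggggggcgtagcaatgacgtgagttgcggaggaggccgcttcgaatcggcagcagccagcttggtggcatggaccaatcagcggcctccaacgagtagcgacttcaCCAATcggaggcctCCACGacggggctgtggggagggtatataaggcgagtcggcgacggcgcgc
Hsp90b1, chr10:86705445-86705694, - strand: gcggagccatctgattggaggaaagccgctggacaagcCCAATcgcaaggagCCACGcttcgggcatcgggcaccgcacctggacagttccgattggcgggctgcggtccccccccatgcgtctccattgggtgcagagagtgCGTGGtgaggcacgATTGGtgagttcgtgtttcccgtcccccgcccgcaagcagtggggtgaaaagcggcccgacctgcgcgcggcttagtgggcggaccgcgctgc
The Herpud1 window also holds the motif TGATGNAAN, the C/EBP-ATF response element (CARE) to which ATF4 binds, on the opposite strand at 113 bases before the start, and it was the only member of the 27 with a match (3.70%), against 4.50% of all genes in the table. The UPRE core TGACGTGG, an XBP1 element, had no match among the 27, against 0.714% of all genes. The core CCACG alone, which lies within every ERSE and ERSE-II, was present in 23 of the 27 (85.2%) and in 35.5% of all genes.

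**Figure D1:**
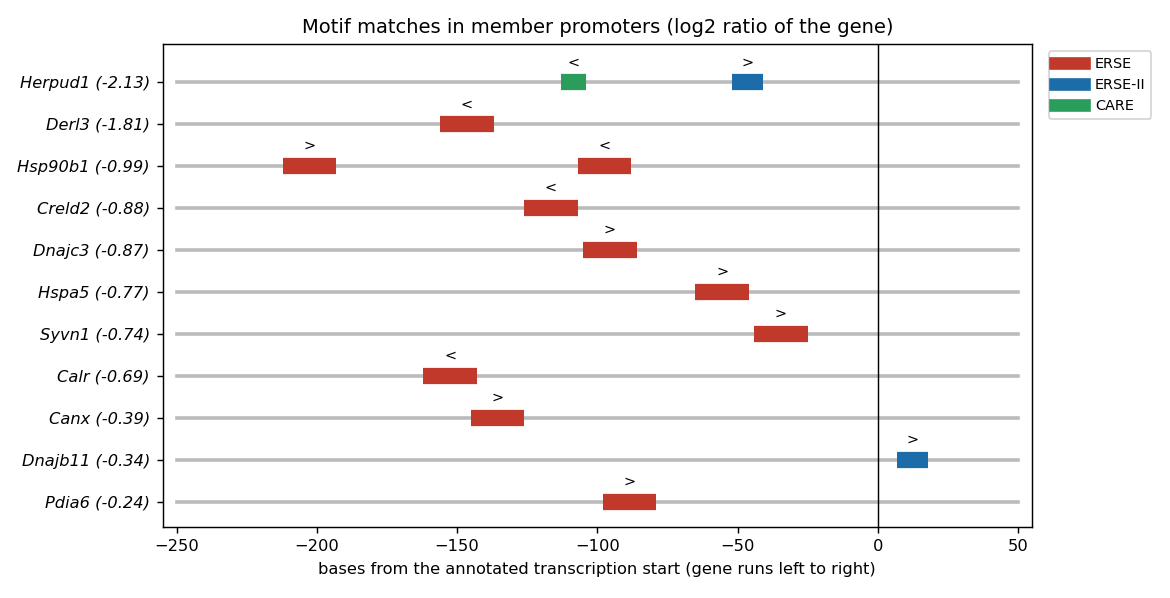
Positions of ERSE (red), ERSE-II (blue) and CARE (green) matches in the promoter windows of the 11 member genes that hold one, in bases from the annotated start (x axis), with arrows for the strand of the match and, beside each name, the log2 ratio of the array labelled MED1-null over the control array. Matches begin between 212 bases before the start (Hsp90b1) and 44 bases before it (Syvn1), apart from the ERSE-II of Dnajb11, which begins 7 bases after the start.

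The values are MAS5 signals, 1 per probe set on a linear scale, a probe set being several short probes that together read 1 transcript. Signals under the overall median of 67.7 were set to that value, the floor, and a gene counts as measured when it reaches the floor on either array. Each gene is represented by its brightest probe set over both arrays, and ratios are those of the array labelled MED1-null over the control array. The pooled SD of the log2 ratio between probe sets of a gene was 0.31 over 4916 genes, or 1.24-fold, and is the only spread these arrays give. It says nothing of the spread between animals or between cultures.

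Some facts of the arrays bear on every value. Med1 itself read higher on the array labelled MED1-null by all 6 of its measured probe sets, the brightest at 1039 against 462.7 on the control array, and its seventh lay below the floor on both. Which part of Med1 was deleted is not in the labels, so these values do not check the label. Every direction given here rests on the labels of the 2 arrays, which were not tested. Sex-linked transcripts differed as well: Xist read 55.7 on the array labelled MED1-null and 5461 on the control array, and the Y-linked Eif2s3y 2164 and 4.2, so genotype label and sex cannot be told apart. Of 11 keratinocyte markers with a probe set, 10 were measured and Krt15 was below the floor on both arrays. Their signals summed to 220870 on the array labelled MED1-null and 194830 on the control array, 8 of the 10 had a ratio above 0, and Trp63 (11736 and 7798) and Col17a1 (18599 and 12385) were at least 1.5-fold higher. Fibroblast markers summed to 2670 and 6315 over 13 genes, of which 9 were measured and Col1a1 was below the floor on both. Most of that sum came from Sparc (1034 and 2709) and Vim (979.7 and 2602), while Col1a2 went the other way (115.3 and 80.3). Melanocyte markers summed to 21583 and 29586 over 12 measured genes, of which 9 had a ratio below 0 and 3 above. Tyrp1 (6715 and 9346) gave much of that sum. Gpnmb (1125 and 3480) and Kit (136.8 and 409.5) were at least 2-fold lower by their brightest probe sets. Their other probe sets had log2 ratios of -0.16 and -0.88. Tyr went the other way by its brightest probe set (746.8 and 626.6), but its 3 probe sets ran from -1.26 to 0.25 in log2 ratio. Immune markers summed to 3325 and 2973, mostly from Cd68 (2799 and 2446), with the leukocyte gene Ptprc below the floor on both, and endothelial markers to 295.5 and 336.5, with Pecam1 below it on both. The part of the keratinocyte, fibroblast, melanocyte and sex differences in the ratios below was not tested.

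All 33 genes were measured, and each reached the floor on both arrays. On the array labelled MED1-null 31 of them read lower than on the control array and 2, Hyou1 and Hspa13, read higher. The median log2 ratio was -0.61, or 1.53-fold lower, beside 0.06 over all 11621 measured genes, of which 42.9% had a ratio below 0. Ratios ran from 4.38-fold lower (Herpud1) to 1.07-fold higher (Hyou1). By fold, 4 genes were at least 2-fold lower (12.1%), against 2.23% of all measured genes, and 17 were at least 1.5-fold lower (51.5%), against 7.32%. None was higher by 1.5-fold or more, against 7.80% of all measured genes, nor by 2-fold or more, against 1.63%. In whole cultures, fewer cells that express a gene and less RNA per cell cannot be told apart.

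Many of these probe sets gave high signals, where ratios tend to scatter less on arrays of this kind. Among the 4190 measured genes with a mean signal of at least 1000, 6.73% were at least 1.5-fold lower and 2.03% at least 2-fold lower. Of the 25 ER genes in that range, 14 were at least 1.5-fold lower (56.0%) and 3 at least 2-fold lower (12.0%). Higher by 1.5-fold or more were 3.03% of all genes in that range, by 2-fold or more 0.788%, and none of the 25 ER genes. The balance of lower against higher genes in the background moves with the scaling of the arrays. As deposited, 259 of all measured genes were at least 2-fold lower and 190 higher, and with a lowess curve subtracted 314 and 143; at 1.5-fold the counts were 851 and 907, and 1024 and 662.

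**Figure D2:**
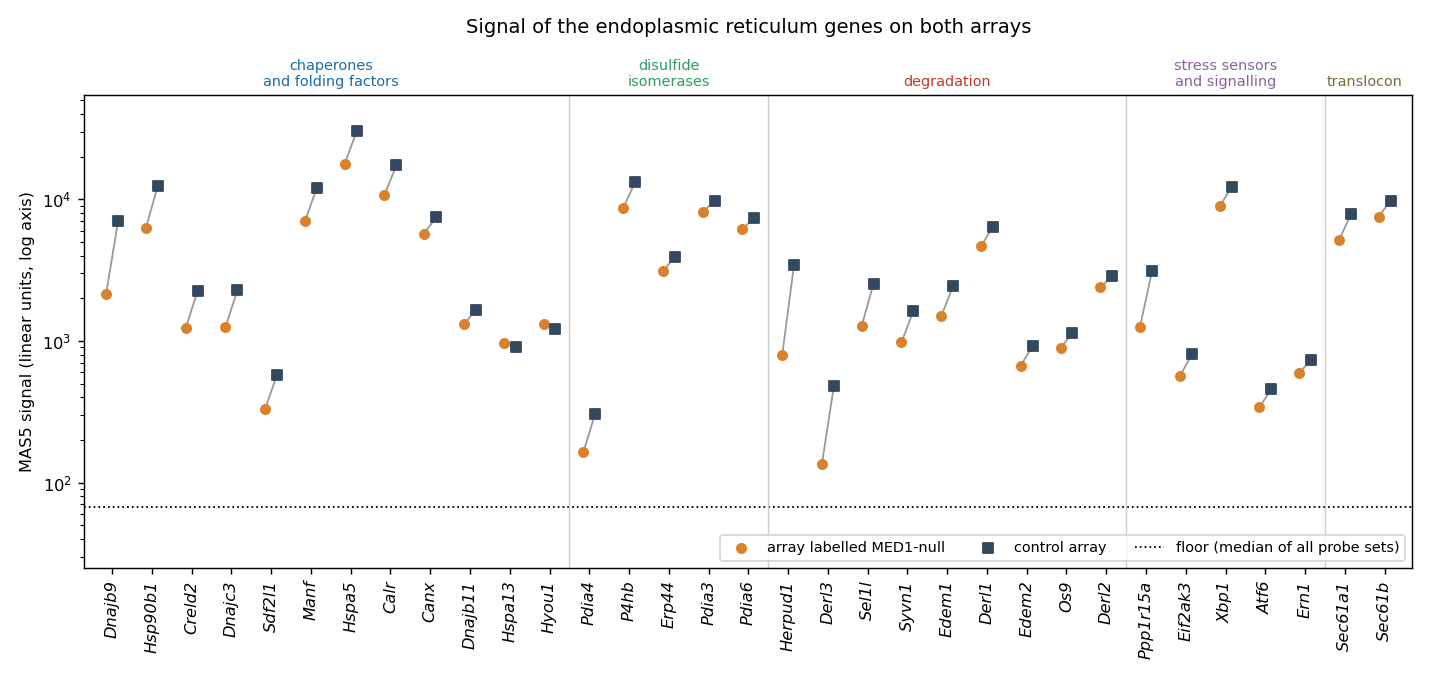
MAS5 signal of each gene (y axis, log scale) on the array labelled MED1-null (orange circles, left of each pair) and the control array (dark squares, right), by role group; the dotted line is the floor of 67.7. The circle lies under the square for 31 of the 33 genes, and the longest lines belong to Herpud1, Derl3, Dnajb9 and Ppp1r15a.

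Among the Hsp70 and Hsp90 chaperones the lower readings belonged to the central members. Hspa5, which encodes BiP, the Hsp70 that holds unfolded chains in the ER and also binds the stress sensors, read 17797 on the array labelled MED1-null and 30255 on the control array, 1.70-fold lower. Its 3 probe sets had log2 ratios from -1.10 to -0.43. Hsp90b1, which encodes GRP94, the Hsp90 of the ER, read 6263 and 12467, 1.99-fold lower and just short of 2-fold. Its other probe set had a log2 ratio of -0.82. Hyou1 and Hspa13, 2 further relatives of Hsp70, stood apart from Hspa5 and Hsp90b1. Hyou1, a large Hsp70-like protein that exchanges the nucleotide of BiP, read 1309 and 1218, with probe sets from -0.26 to 0.23 in log2 ratio. Hspa13, an Hsp70-like ATPase of microsomes, read 965.8 and 900.8, with probe sets from -0.14 to 0.58 and a median over them of -0.01. Both differences lie within the spread between probe sets, and for both genes probe sets went either way.

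The J-domain cochaperones, which stimulate the ATPase of BiP, differed widely among themselves. Dnajb9, which encodes ERdj4, read 2144 on the array labelled MED1-null and 7002 on the control array, 3.27-fold lower and at place 54 from the lowest ratio among all 11621 measured genes, by its only probe set. Dnajc3, which encodes p58IPK, read 1245 and 2273, 1.83-fold lower, but its 5 probe sets ran from -0.87 to -0.03 in log2 ratio, and their median was -0.36. Dnajb11, which encodes ERdj3, read 1311 and 1665, 1.27-fold lower. Sdf2l1, a partner of ERdj3, read 332.9 and 579.5, 1.74-fold lower. The spread within this class, from 1.27-fold to 3.27-fold, exceeds the SD between probe sets.

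The lectin chaperones hold glycoproteins until they are folded. Calr, the soluble calreticulin, read 10774 on the array labelled MED1-null and 17355 on the control array, 1.61-fold lower, and its other 2 probe sets had log2 ratios of -1.03 and -1.09. Canx, the membrane-bound calnexin, read 5723 and 7509, 1.31-fold lower, with probe sets from -0.55 to -0.14. The secreted factors that are induced by ER stress were nearer to calreticulin in ratio. Manf, a neurotrophic factor that also binds BiP, read 6991 and 12084, 1.73-fold lower, and Creld2 read 1225 and 2253, 1.84-fold lower. Over the 12 chaperones and folding factors the median log2 ratio was -0.78, and 8 were at least 1.5-fold lower, against 7.32% of all measured genes.

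Disulfide isomerases had a smaller median, -0.34 over 5 genes, and all 5 read lower on the array labelled MED1-null. Pdia4, the isomerase ERp72, read 163.8 and 307.0, 1.87-fold lower, by its only measured probe set, whose signal is low. P4hb, the founding protein disulfide isomerase, which is also a subunit of prolyl 4-hydroxylase, read 8637 and 13197, 1.53-fold lower. Erp44, which retains ER oxidases in the secretory pathway, read 3102 and 3940, 1.27-fold lower, while its other probe set had a log2 ratio of 0.17. Pdia3, the partner ERp57 of the lectin chaperones, read 8131 and 9735, and Pdia6 read 6213 and 7358. These last differences, 1.20-fold and 1.18-fold, are smaller than the SD between probe sets.

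Degradation genes held the lowest ratio of the whole set. Herpud1, a membrane protein with a ubiquitin-like domain that organises the HRD1 ligase complex, read 791.1 on the array labelled MED1-null and 3465 on the control array, 4.38-fold lower, at place 23 from the lowest ratio among all measured genes. Its 2 probe sets agreed closely, at -2.13 and -2.12 in log2 ratio. The ligase itself, Syvn1 (HRD1), read 977.2 and 1628, 1.67-fold lower, with -0.36 by its other probe set. Sel1l, the adaptor that holds the ligase complex together, read 1280 and 2540, 1.98-fold lower, and all 5 of its probe sets were lower, from -1.44 to -0.69. Both core subunits of the complex thus read lower, by less than Herpud1.

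The derlins, membrane proteins that help pass substrates back to the cytosol, did not share a common ratio. Derl3 read 135.6 on the array labelled MED1-null and 476.9 on the control array, 3.52-fold lower at place 41, with a low signal on the first and a single probe set. Derl1 read 4652 and 6426, 1.38-fold lower, and Derl2 read 2391 and 2874, 1.20-fold lower. For both of these 1 probe set went the other way, at 0.28 for Derl1 and 0.26 for Derl2. Among the mannose-trimming and lectin factors that pick glycoproteins for degradation, Edem1 read 1493 and 2455, 1.64-fold lower, Edem2 read 670.3 and 922.9, 1.38-fold lower, and the lectin Os9 read 893.7 and 1137, 1.27-fold lower. The other probe set of Edem1 had a log2 ratio of -0.41. The median log2 ratio of the 9 degradation genes was -0.72, and 5 were at least 1.5-fold lower, against 7.32% of all measured genes.

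All 5 sensor and signalling genes read lower on the array labelled MED1-null, and the feedback regulator Ppp1r15a was the only one of them beyond 1.5-fold. This gene encodes GADD34, the phosphatase subunit that reverses PERK signalling and is induced by ATF4, and it read 1264 on the array labelled MED1-null and 3100 on the control array, 2.45-fold lower, by its only probe set. Eif2ak3, the kinase PERK, read 561.6 and 803.6, 1.43-fold lower. Atf6, the membrane-bound transcription factor, read 340.3 and 455.5, 1.34-fold lower, and all 3 of its probe sets were lower, down to -0.61 in log2 ratio. Ern1, which encodes IRE1, read 595.9 and 731.3, 1.23-fold lower, less than the SD between probe sets, and its probe sets ran from -0.30 to 0.74. Xbp1, whose mRNA is spliced by IRE1 into the active transcription factor, read 8906 and 12168, 1.37-fold lower. Its probe sets ran from -0.47 to -0.04, and spliced and unspliced forms were not told apart here. The median log2 ratio of the 5 genes was -0.45.

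The translocon subunits read lower as well. Sec61a1, the pore, read 5128 on the array labelled MED1-null and 7821 on the control array, 1.53-fold lower, with all 6 probe sets lower, from -0.65 to -0.18. Sec61b, a small subunit beside the pore, read 7547 and 9815, 1.30-fold lower. Over the whole set, 75 of 82 probe sets reached the floor on either array, and 66 of these were lower and 9 higher on the array labelled MED1-null. Of 20 genes with several measured probe sets, 13 had all of them lower and 7 had probe sets in both directions. The like counts over all probe sets, and over all genes with several, are not given here, so these counts have no share beside them. Over all probe sets that reached the floor on both arrays, the median log2 ratio was 0.06.

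**Figure D3:**
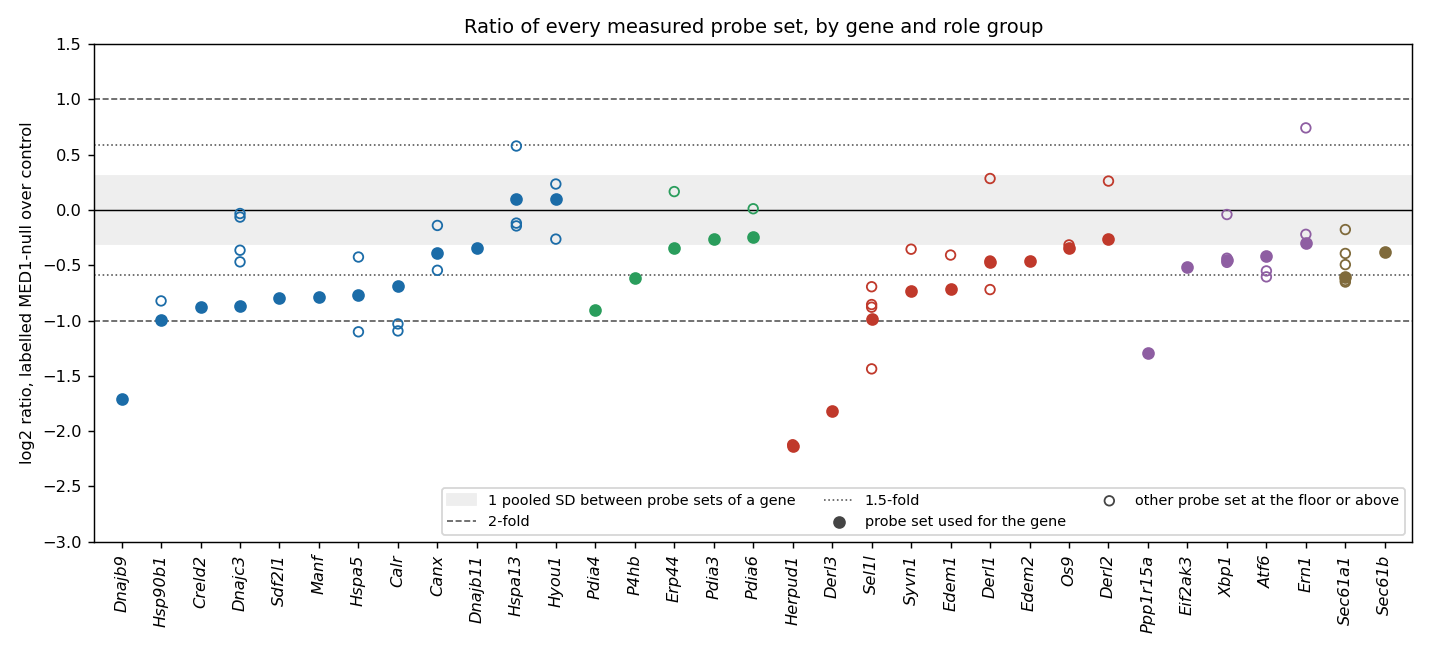
Log2 ratio of the array labelled MED1-null over the control array (y axis) for every measured probe set of the 33 genes, coloured by role group; filled points are the probe sets used and open points the others, and the grey band is the SD of 0.31 between probe sets of a gene. By the probe sets used, Herpud1, Derl3, Dnajb9 and Ppp1r15a lie beyond 2-fold, and the 9 probe sets above 0 belong to Hspa13, Hyou1, Erp44, Pdia6, Derl1, Derl2 and Ern1.

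Other genes that serve ER folding, degradation, translocation or stress signalling, taken from 5 lists chosen by function, were lower to a smaller degree. Not all of their products reside in the ER. Of 112 measured, 82 had a ratio below 0, against 42.9% of all measured genes, and the median log2 ratio was -0.18. At least 2-fold lower were 5, against 2.23% of all measured genes, and 16 were at least 1.5-fold lower, against 7.32%. Only 1 was at least 1.5-fold higher, against 7.8%. That gene was Creb3l2, an ER-anchored transcription factor named after its value was seen, at 1392 on the array labelled MED1-null and 868.8 on the control array. In oxidative folding the median was -0.33 over 20 genes and 5 were at least 1.5-fold lower. This median is close to the -0.34 of the 5 disulfide isomerases among the members. Ero1b, an oxidase that recharges the isomerases, read 101.8 and 189.8, 1.86-fold lower, and its 3 probe sets ran from -0.96 to -0.46 in log2 ratio. The isomerase Pdia5 read 416.3 and 726.8, 1.75-fold lower, and Fkbp7, a proline isomerase, read 103.4 and 160.0, 1.55-fold lower. Signals of Ero1b and Fkbp7 are low, near the floor of 67.7. Lectin, glycan and J-domain factors had a median of -0.12 over 16 genes. Among them Nucb2, a calcium-binding protein of the secretory pathway, read 1612 and 4325, 2.68-fold lower, by its only measured probe set.

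Of 21 further degradation genes, 17 had a ratio below 0, with a median of -0.18. Herpud2, the relative of Herpud1, read 751.8 on the array labelled MED1-null and 1416 on the control array, 1.88-fold lower, and its 3 probe sets ran from -1.08 to -0.57 in log2 ratio. Selenos, which recruits the extraction ATPase, was 1.44-fold lower and the ubiquitin-conjugating Ube2j1 1.44-fold lower. Genes of translocation, signal peptide cleavage and glycan transfer had a median of -0.19 over 28 genes, with Srprb, Srpr and Ssr3 the farthest from 0 at 1.52-fold, 1.45-fold and 1.40-fold lower. Of 27 further stress signalling genes, 18 were below 0 and the median was -0.09, while 4 were at least 2-fold lower, against 2.23% of all measured genes. These were Chac1, Trib3, Ddit3 (CHOP) and Atf3, which read 650.2, 402.8, 840.1 and 685.2 on the array labelled MED1-null, against 2979, 1837, 3412 and 1716 on the control array. The probe sets of Ddit3 differed, at -2.02 and -0.95 in log2 ratio. Also in this list, and named after their values were seen, Atf4 was 1.35-fold lower and its known targets Asns and Sesn2 1.59-fold and 1.47-fold lower. Likewise named after their values were seen, Wfs1 and Bbc3 were 1.59-fold and 1.58-fold lower, while Bcl2l11 and Traf2 were 1.35-fold and 1.31-fold higher. In all, 9 genes of this list had a ratio above 0.

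Chaperones outside the ER did not show the same readings. Of 21 measured cytosolic chaperones none was 1.5-fold lower or higher, against 7.32% and 7.8% of all measured genes, and the median log2 ratio was 0.05. Hspa8, the constitutive cytosolic Hsp70, read 24234 on the array labelled MED1-null and 16253 on the control array, 1.49-fold higher, with probe sets from -0.22 to 0.63. Hspa1a, the inducible form, was 1.25-fold higher and its cochaperone Dnajb1 1.23-fold lower. Mitochondrial chaperones and proteases had a median of 0.0014 over 13 genes, again with none beyond 1.5-fold. The protease Htra2 was 1.48-fold higher, by 1 of probe sets that ran from -0.07 to 0.56, and the cochaperone Grpel2 and its Hsp70 partner Hspa9 were 1.33-fold and 1.29-fold lower. With 1 array a group, the difference between these lists and the ER genes has no test.

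**Figure D4:**
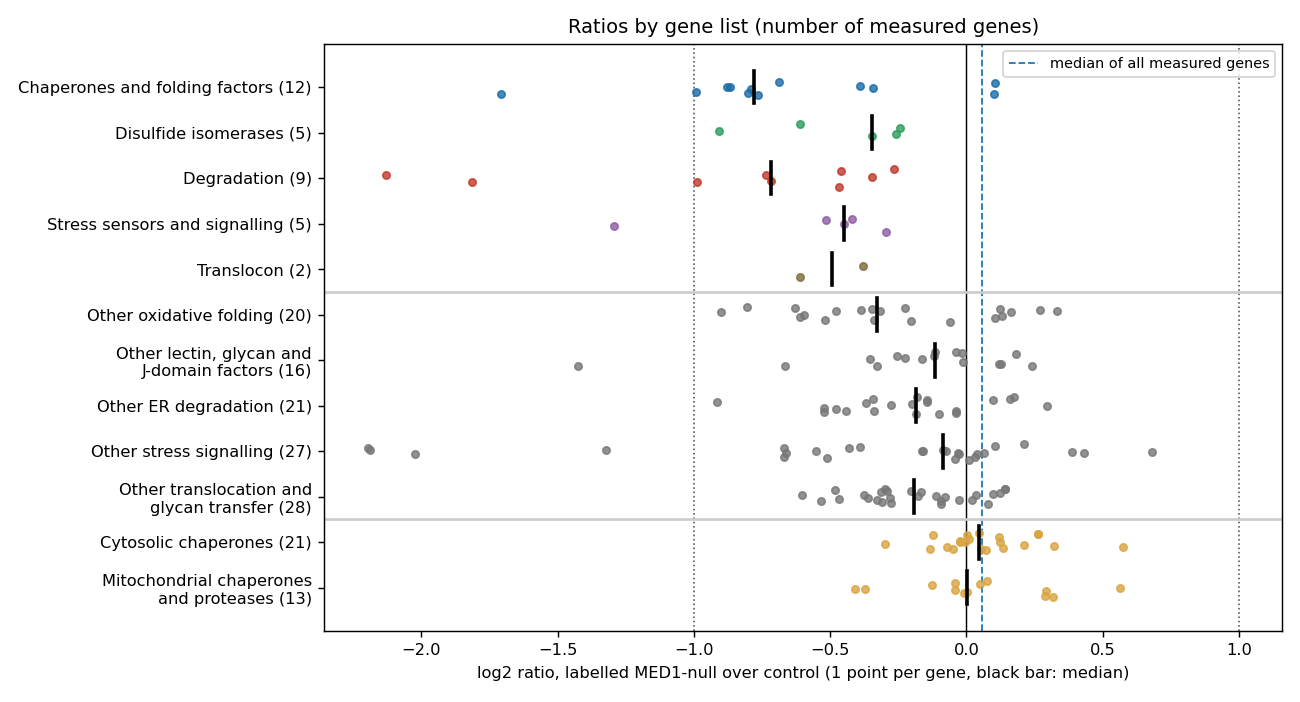
Log2 ratio of the array labelled MED1-null over the control array (x axis) for each measured gene of each list. The 5 role groups are at the top, the 5 lists of other genes of these functions in grey, and the cytosolic and mitochondrial chaperones in yellow. Black bars are medians, dotted lines mark 2-fold and the dashed line is the median of all measured genes, 0.06. Medians of the role groups run from -0.78 for ER chaperones to -0.34 for disulfide isomerases. Those of the 5 grey lists run from -0.33 to -0.09, and that of cytosolic chaperones is 0.05.

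The promoter elements were then set beside the ratios. The 9 genes with an ERSE had log2 ratios from -1.81 to -0.24 with a median of -0.77, and the 18 with a promoter sequence and no exact ERSE had ratios from -2.13 to -0.26 with a median of -0.49. The 18 include the 2 genes with an ERSE-II, Dnajb11 and Herpud1, and Herpud1 is the one at -2.13. Dnajb9, at -1.71, has neither element. The ranges overlap widely: Pdia6 and Canx hold the element and were 1.18-fold and 1.31-fold lower, while Dnajb9 and Ppp1r15a, 3.27-fold and 2.45-fold lower, have no ERSE or ERSE-II in these windows. A missing match says only that these letters are not in the window. Herpud1 and Dnajb11, the ERSE-II genes, were 4.38-fold and 1.27-fold lower. Beyond the members, 5 further genes with an ERSE were measured. Of these Ero1b, at a low signal, was 1.86-fold lower. Adcy3, Alg12, Pan2 and Spats2l, named after their values were seen, lay between 1.01-fold and 1.27-fold higher. Over these 5 genes the median log2 ratio was 0.05, and 1 was at least 1.5-fold lower. Over all 14 measured genes with an ERSE the median was -0.71, and 8 were at least 1.5-fold lower, against 7.32% of all measured genes. Of these 8, 7 are members chosen here with ratios known, so the count is no independent finding. Of 6 further measured genes with an ERSE-II, also named after their values were seen, Lgalsl read 5225 on the array labelled MED1-null and 9859 on the control array, and Krtcap2, a subunit of the oligosaccharyltransferase, 2611 and 3905. The others, Nucb1, Rcl1, Lrif1 and Rbm39, had log2 ratios from -0.08 to 0.24.

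How far each ratio depends on the processing is shown by gene. The 31 genes with a ratio below 0 stayed below 0 under each of 8 alternatives in which they were measured, and Hyou1 stayed above 0 in all of them. The ratio of Derl3 rests on its low reading on the array labelled MED1-null: with the floor raised to 434.6 it became -0.13. At that floor Sdf2l1 became -0.42 and was no longer 1.5-fold lower, and Atf6 became -0.07. Dnajc3, at -0.36 by the median of its probe sets, and Syvn1, at -0.36 with plain-suffix probe sets alone, likewise no longer reached 1.5-fold. By the median of their probe sets Syvn1 (-0.55), Edem1 (-0.56) and Sec61a1 (-0.55) also fell short of it. With quantile normalization P4hb (-0.54) and Sec61a1 (-0.57) did so. Sec61a1 fell short too with the lowess curve subtracted (-0.584) and with plain-suffix probe sets alone (-0.49). The ratio of Calr became -1.03 by the median of its probe sets, and that of Xbp1 -0.04 where only probe sets with the plain suffix _at were used.

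**Figure D5:**
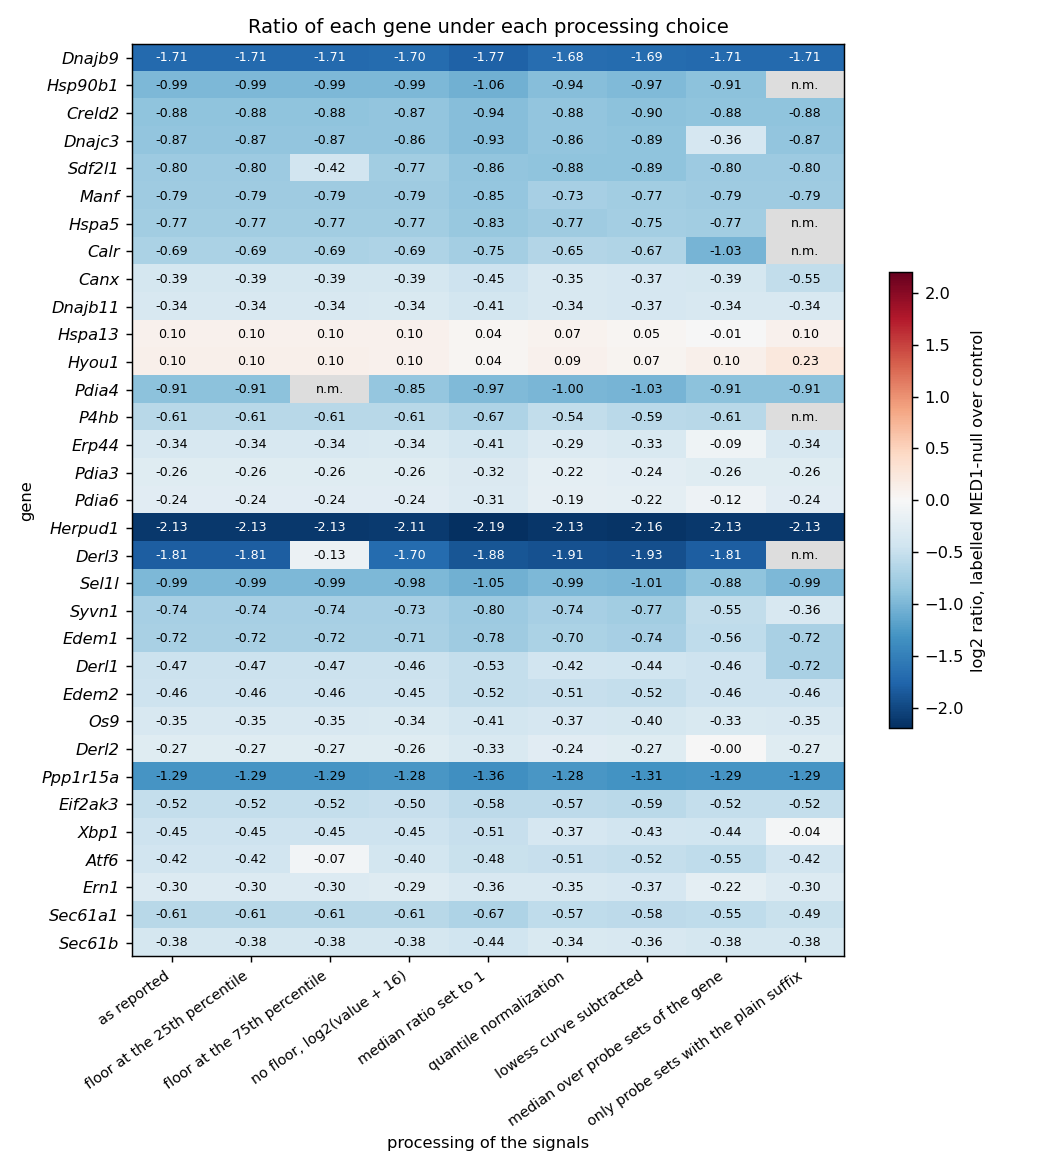
Log2 ratio of the array labelled MED1-null over the control array for each gene (rows) as reported and under each alternative processing of the signals (columns), in blue where lower and red where higher; n.m. marks a gene with no measured probe set under that alternative. Herpud1 ranges from -2.19 to -2.11 and Dnajb9 from -1.77 to -1.68, while Derl3 ranges from -1.93 to -0.13.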

How the data were processed

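RNA of 2 primary keratinocyte cultures was measured on 1 Affymetrix GeneChip mouse genome array each. The intensity values deposited are linear MAS5 signals, 1 for each probe set, per the submitters' processing notes; the design text names GeneChip Operating Software, whose version is not given in the sources used here. The trimmed mean of each array is 500, which shows that arrays were scaled as a whole. Medians were 71.4 on the array labelled MED1-null and 64.1 on the control array. Detection calls were not used here.

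Of 45101 probe sets, 64 are controls, 34945 have 1 gene symbol in GEO's platform annotation, 932 several and 9160 none; only those with 1 were named. All 33 members matched the RefSeq table (GRCm38.p6) by Entrez ID. Signals were raised to a floor of 67.7, log2 ratios were taken with Python 3.11.15 and pandas 2.3.3, and genes at least 2-fold or 1.5-fold apart were counted. Ratios have no test, because each group has 1 array, whose number limits the precision. The computations were tested on simulated data. Members, lists and thresholds were chosen with earlier results of these data known. All members are named; of other lists, genes at least 2-fold apart, otherwise up to 3 farthest from 0. Alternatives were other floors, log2(value + 16), 3 rescalings and 2 rules for probe sets. A planned look at protein C termini was not made, as protein sequences were not used here.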

Additional observations from a re-analysis of the deposited data

How the results depend on the processing

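Counts of members kept within 1.5 times of those reported under 8 alternatives, with 3 to 6 genes at least 2-fold lower and none higher by 1.5-fold, except that 11 of the 28 genes with a plain-suffix probe set were at least 1.5-fold lower, against 17 of 33; fewer genes were measured there. The median log2 ratio of members ranged from -0.67 to -0.46. Over all genes with plain-suffix probe sets alone, 704 were at least 1.5-fold lower and 867 higher, and at 2-fold 210 and 170. Shares over all measured genes are given only for the processing as reported, so member counts under the alternatives have no such share beside them. Counts over all genes moved with the floor: with it at 18.1, 934 were at least 2-fold lower and 1120 higher (2097 and 2506 at 1.5-fold), with log2(value + 16) 870 and 1055 (2178 and 2547), and with it at 434.6, 106 and 49 (396 and 259). Of 258 single-gene values, 251 moved by less than 0.31, 7 by more, and 0 changed direction among genes beyond 1.5-fold; Hspa13 became -0.01 by the median of its probe sets. No paired analysis was possible because each group has 1 array. Low signals limit Derl3 and Pdia4 most.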
